A study of Mus musculus with 7 samples.

Results

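The *Foxa* genes encode the forkhead transcription factors FOXA1, FOXA2 and FOXA3, and all 3 of them were read on the arrays, among 14890 genes with a measurable probe and 21475 gene names in all. They were taken by name, as every non-control probe annotated *Foxa1*, *Foxa2* or *Foxa3*, which gave 1 probe a gene. The 3 genes were chosen by their *Shh* -/- against +/+ values in these same pools, so their differences are given as a description, with no test.

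FOXA proteins bind DNA through a winged-helix domain and can open compacted chromatin, which lets other factors reach the regulatory DNA of endodermal genes. *Foxa1* and *Foxa2* act together when foregut endoderm becomes competent to form liver, and *Foxa3* is a gene of the later gut and of liver cells. *Foxa2* is also active in the node, notochord and floor plate, the midline tissues that secrete Sonic hedgehog.

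RNA came from posterior second heart field (pSHF), the progenitor tissue behind the heart, dissected at embryonic day 9.5 from mice of mixed C56B/6 and CD-1 background. Embryos came from *Shh* +/- intercrosses after superovulation and were pooled after genotyping into 4 *Shh* -/- pools and 3 *Shh* +/+ pools, with 1 single-colour array a pool. Foregut endoderm, a known site of *Foxa* expression, stayed on the dissected piece, whereas heart and neural tube were cut away. Cardiomyocyte genes still gave signal in the pools, with *Myl7* at a mean log2 signal of 17.08 in the mutant and 17.11 in the wild-type pools. The source of that RNA was not tested. *Shh* is lost from the whole embryo in the mutants, and nothing in the labels says which pools share litters, so the spread given here is that between pools.

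Same-numbered pools 1, 3 and 4 lay on common slides, the mutant always in the first array position, and an effect of that position cannot be told apart from genotype. The array of mutant pool 2 had no partner and is labelled as possibly leaked, and values that rest on it are also given without it. Between 59.8 and 70.6% of probes were well above background on an array, and the number of arrays limits the precision. The *Shh* probe was at 9.40 ± 0.19 (SD, n = 4) in the mutant pools, 46.6% of the wild-type level with no overlap (difference −1.10, limma adjusted p = 0.0586), and whether it lies in the deleted part of the allele is not given in the sources used here. The endoderm lining was present in every pool, with *Epcam* at 11.34 to 11.60 in the mutant and 11.59 to 11.72 in the wild-type pools.

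Each *Foxa* probe is a 60-base oligonucleotide on the minus strand of the mm9 build, and the first 30 bases of each are shown, 5′ to 3′, since every value below is the signal on these 3 sequences. The chromosome positions are those of the whole probe, and the array's annotation does not say in which exon or UTR it lies.
*Foxa1*, chr12:58641996-58642055: ccactccagggggaaaaaaggaagtatcat
*Foxa2*, chr2:147868698-147868757: ccattctggacatggtgaaatccaggtctc
*Foxa3*, chr7:19599053-19599112: tgaccttttgagtatgtgacagaacacatc
Over their whole length, no pair of these probes shares a run of more than 6 identical bases, and aligned end to end they match at 16 to 20 of 60 positions. The *Foxa2* probe was spotted 10 times on each array and the other two were spotted once. No order of levels is read between probes, and where one probe is subtracted from another within a pool, only the change of that value between pools is compared.

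The 3 paralogs differed in direction in the *Shh* -/- pools. *Foxa3* was 1.65-fold higher, *Foxa2* was at 81.9% of its wild-type level, and *Foxa1* differed by less than the spread between its pools. All values are normalized signals on the log2 scale, and all differences are mutant minus wild type.

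*Foxa3*, the paralog of later gut and liver, was at 7.82, 7.93, 8.21 and 7.83 in mutant pools 1 to 4 and at 6.90, 7.45 and 7.31 in wild-type pools 1, 3 and 4. The lowest mutant pool was above the highest wild-type pool, with a gap of 0.36 between them. The means were 7.95 ± 0.18 (SD, n = 4) and 7.22 ± 0.29 (SD, n = 3), a difference of 0.73 with a standard error of 0.16. Within the shared slides the mutant pool was higher by 0.92, 0.75 and 0.52. Wild-type pool 1 held the lowest *Foxa3* signal and mutant pool 3 the highest. The unnormalized *Foxa3* spot read 113 to 206 intensity units in the wild-type and 211 to 449 in the mutant pools, over a local background of 20 to 25, so the probe was dim but well above background on all 7 arrays. In a pooled tissue, more cells of a type and more RNA per cell cannot be told apart.

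*Foxa2*, the paralog shared by endoderm, notochord and floor plate, was at 13.60, 13.75, 13.54 and 13.41 in mutant pools 1 to 4 and at 14.01, 13.84 and 13.74 in wild-type pools 1, 3 and 4. Mutant pool 2 passed wild-type pool 4 by 0.01, and the groups overlapped only there. The means were 13.57 ± 0.14 (SD, n = 4) and 13.86 ± 0.14 (SD, n = 3), a difference of −0.29 with a standard error of 0.12. The 3 same-slide differences were −0.41, −0.30 and −0.33, all lower in the mutant. Without mutant pool 2, the possibly leaked array, the difference was −0.35 and the groups did not overlap. The replicate spots gave the precision of the reading itself. Their SD within an array was 0.008 to 0.033, well under the difference between genotypes, and the mutant spot was the lower one in 983 of 1044 pairs of a mutant and a wild-type spot. These spots are repeat readings of 7 pools and add no pools.

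*Foxa1*, the partner of *Foxa2* in early endoderm, was at 8.80, 8.35, 9.22 and 9.09 in mutant pools 1 to 4 and at 8.58, 9.11 and 9.16 in wild-type pools 1, 3 and 4. The groups overlapped through most of their range. The means were 8.86 ± 0.38 (SD, n = 4) and 8.95 ± 0.32 (SD, n = 3), a difference of −0.09 with a standard error of 0.22. The sign did not hold: the same-slide differences were 0.22, 0.11 and −0.07, and without mutant pool 2, the lowest of all 7, the difference was 0.08. Without wild-type pool 4 it was 0.02, and without wild-type pool 1 it was −0.27. *Foxa1* thus has no settled direction in these data.

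**Figure D1:**
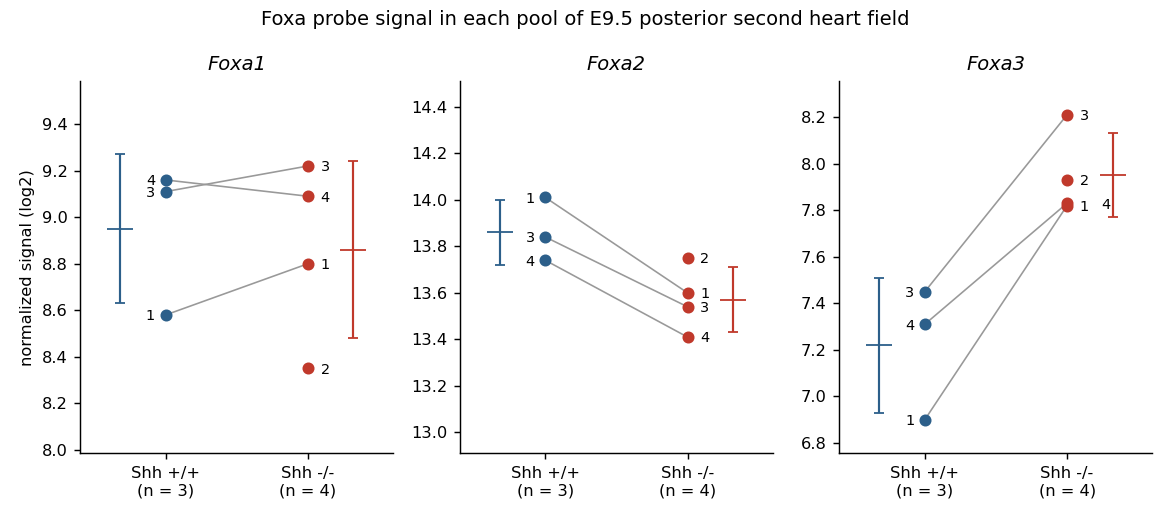
Normalized log2 signal of the *Foxa1*, *Foxa2* and *Foxa3* probes in 3 *Shh* +/+ pools (blue) and 4 *Shh* -/- pools (red), numbered by pool, with grey lines joining pools of 1 slide and crossbars giving the mean ± SD beside the points. The 3 panels span the same number of log2 units; *Foxa3* points of the 2 genotypes lie apart, *Foxa2* points meet at mutant pool 2, and *Foxa1* points are mixed.

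Without overlap between the genotypes, 1 of the 3 *Foxa* genes was higher (*Foxa3*) and 0 were lower. Over all probes read without a missing value, 3.97% were higher and 3.37% were lower in the mutants without overlap. Since these pools chose the genes, nothing is read from that count. The median difference of all probes tested was 0.00, with the middle 90% between −0.31 and 0.32. *Foxa3* lay outside that range and *Foxa2* inside it, close to the lower edge. The genes were chosen by these differences, so nothing is read from their place either.

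Spread between pools of a genotype, which the choice of genes did not use, differed among the 3 probes. The *Foxa2* value averages 10 spots and the other values rest on 1 spot each. The percentiles take no account of spot number or brightness, and the part of these in the spread was not tested. The *Foxa1* probe had a within-genotype SD of 0.36, at the 89.6th percentile of the probes tested, and ranged over 0.86 among the mutant pools. *Foxa3* had 0.23, at the 68th percentile, and *Foxa2* 0.14, at the 31.1st percentile. The median probe had 0.18. Much of the *Foxa1* spread rested on mutant pool 2, the possibly leaked array. Without it the *Foxa1* range among mutant pools was 0.42 and the SD 0.27, at the 80.3rd percentile, beside 0.26 for *Foxa3* and 0.12 for *Foxa2*.

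Subtracted from each other pool by pool, *Foxa3* separated from both other paralogs, and *Foxa1* did not separate from *Foxa2*. The log2 signal of *Foxa3* minus that of *Foxa1* was −0.98, −0.42, −1.01 and −1.25 in mutant pools 1 to 4 and −1.68, −1.65 and −1.85 in wild-type pools 1, 3 and 4, with no overlap. The shift between genotypes was 0.81 overall and 0.70, 0.64 and 0.60 within slides, where the SD between slides was 0.05. This was narrower than the SD of 0.20 for *Foxa3* alone, since the differences of both genes fell in the same order from slide 1 to slides 3 and 4. *Foxa3* minus *Foxa2* shifted by 1.02, or 1.33, 1.05 and 0.85 within slides, also with no overlap. *Foxa1* minus *Foxa2* shifted by 0.20, or 0.63, 0.41 and 0.25 within slides, and its groups overlapped. That shift turned to −0.06 without wild-type pool 1 and to −0.01 on the authors' values, and was 0.43 without mutant pool 2, 0.37 without wild-type pool 4, 0.30 without wild-type pool 3 and 0.07 without mutant pool 3 or 4, so it has no settled sign.

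Other processing left these directions in place for *Foxa2* and *Foxa3*. Over 13 other settings and left-out pools, *Foxa3* was higher in the mutants in all 13 and without overlap in 12, and *Foxa2* was lower in all 13 and without overlap in 4. Since the *Foxa3* groups did not overlap, leaving out a pool could change neither its sign nor its separation. The 7 fits with a pool left out are therefore no check on *Foxa3*. *Foxa1* was lower in 11 and higher in 2. The exception to the separation of *Foxa3* was the authors' normalized table as deposited, whose column medians ran from 5.50 to 9.93 with mutant pool 2 the lowest. Once each column was set to 1 median, the *Foxa3* difference was 0.78 and the *Foxa2* difference −0.07, and in that table mutant pool 2 stood at 5.70 above its median for *Foxa2* and the other mutant pools at 4.61 to 4.67.

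**Figure D2:**
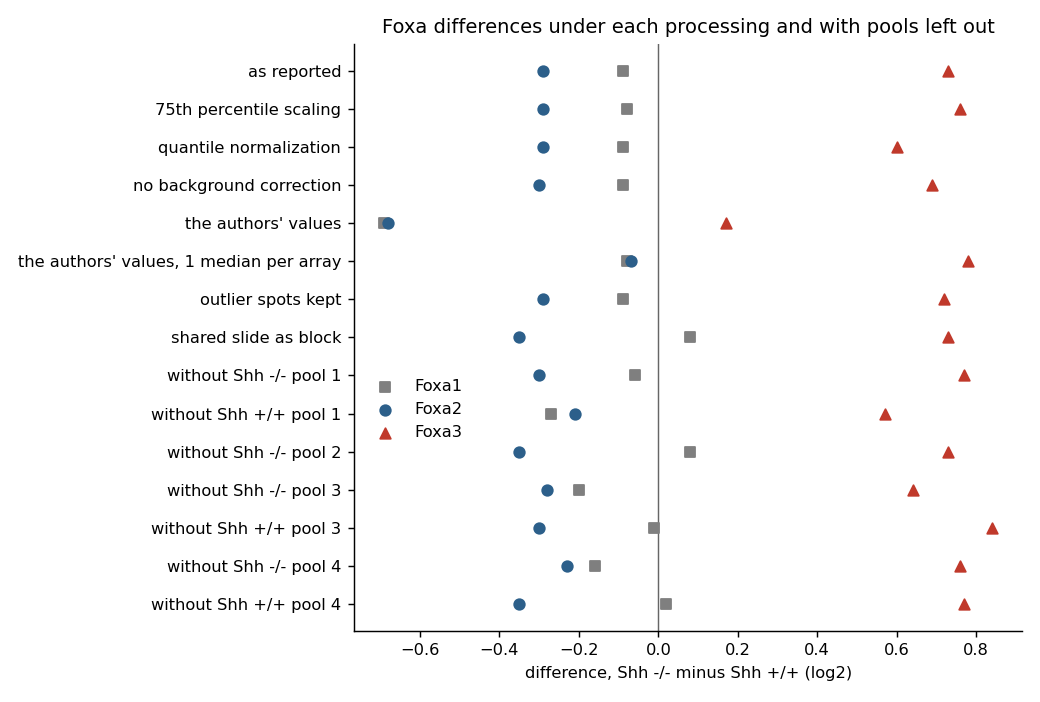
Mutant minus wild-type difference (log2, x axis) of *Foxa1* (grey squares), *Foxa2* (blue circles) and *Foxa3* (red triangles) as reported, under each other processing, with the shared slide as a block, and with each pool left out. Triangles stay right of 0 and circles left of it, and squares lie on both sides; the row of the authors' values is moved to the left for all 3.

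Liver genes whose regulatory DNA is textbook FOXA-bound were mostly higher in the mutants, as *Foxa3* was. Of 8 measured, 7 were higher in the mutants, with a median difference of 0.62. By limma with adjustment over all probes, where 0.229% of probes were called higher and 0.294% lower at adjusted p under 0.05, 1 of the 8 passed. This was *Ttr*, the thyroid hormone carrier with a classical FOXA-bound promoter, which rose by 0.88 (SE 0.14, adjusted p = 0.0408). *Ttr* was at 8.21, 8.53, 8.72 and 8.33 in the mutant and 7.63, 7.51 and 7.57 in the wild-type pools, highest in mutant pool 3 as *Foxa3* was, but in the opposite order to *Foxa3* over the wild-type pools. With single pools left out, *Ttr* kept this call only without mutant pool 1, and with the slide as a block its adjusted p was 0.109. *Alb*, the serum albumin gene on whose enhancer FOXA binding was worked out, had a difference of 1.18 and no overlap (adjusted p = 0.0615). *Afp*, the fetal albumin relative, had 0.13 and overlapped. The summed signal of the list overlapped too, at 120000 to 166000 in the mutant and 120000 to 134000 in the wild-type pools. That sum is mostly *Afp*, whose means were 17.00 in the mutant and 16.87 in the wild-type pools, with *Alb* next at 12.66 and 11.48. It therefore tells little of the other genes.

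Hepatoblast genes, which encode secreted liver proteins and mark the liver bud, lay closest to *Foxa3*. All 13 measured were higher in the mutants, 10 without overlap, as were 3.97% of all probes. The median of the 13 genes was 0.75 beside the *Foxa3* difference of 0.73. Among them 2 passed the test, *Fga*, a fibrinogen chain, at 1.38 (SE 0.23, adjusted p = 0.0478) and *Ambp*, a plasma protein precursor, at 0.63 (SE 0.10, adjusted p = 0.0413). The summed hepatoblast signal, most of it from *Ambp* and *Rbp4*, was 162000 to 206000 in the mutant and 112000 to 117000 in the wild-type pools. Hepatoblast marker RNA therefore moved with *Foxa3*, and its part in the *Foxa3* difference was not tested. The count of 2 became 0 with the slide as a block, with mutant pool 2 or 3 left out, and with any wild-type pool left out. It was 1 without mutant pool 4 and 4 without mutant pool 1. On all 3 slides 12 of the 13 genes were higher. The share of all probes that were so was not counted, so nothing is read from that number.

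Transcription factors that work beside FOXA in hepatic endoderm were mostly higher too, with exceptions. Of 11 measured, 9 were higher, 6 without overlap (3.97% of all probes were), with a median of 0.55, and 1 passed the test. *Creb3l3*, a liver membrane-bound factor, rose by 1.56 (SE 0.23, adjusted p = 0.0343), with the wild-type pools at 6.08 to 6.81 and the mutant pools at 7.39 to 8.22, and it too kept its call only without mutant pool 1 (adjusted p = 0.062 with the block). *Hnf4a*, the nuclear receptor that drives the hepatocyte programme, had 0.80 without overlap on its brighter probe (adjusted p = 0.158) and −0.04 on its other probe, so its probes disagreed. *Onecut1*, also called HNF6, had 0.57 with slide differences of 1.68, 0.26 and −0.67. The summed signal of the list was 23500 to 28800 in the mutant and 21400 to 23800 in the wild-type pools, with overlap. Its largest part was *Tbx3*, which had −0.07.

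Genes of epithelia in general were mixed and stood away from *Foxa3*. Of 18 measured, 12 were lower and 6 higher, with a median of −0.11, and 0 passed the test by limma, against 4 at an unadjusted p under 0.05. Over all probes, 1694 of 23116 were at that unadjusted level by limma. *Epcam*, the epithelial adhesion molecule, had −0.16 and *Cdh1*, E-cadherin, −0.22, both with overlap. The 2 largest differences were −0.40 for *Cldn4*, a tight junction claudin, and 0.36 for *Krt8*, a simple-epithelium keratin. The summed epithelial signal, most of it from the keratins *Krt18* and *Krt8*, was 121000 to 135000 in the mutant and 107000 to 130000 in the wild-type pools. *Foxa1* and *Foxa2* lay closer to this list than *Foxa3* did, at a root mean square distance of 0.29 and 0.20 against 0.41.

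Regional factors of the foregut went both ways. Of 8 measured, 5 were lower and 3 higher, with a median of −0.11, close to the *Foxa1* difference of −0.09, and 2 passed the test, both lower. *Nkx2-1*, the lung and thyroid factor, fell by 0.88 (SE 0.15, adjusted p = 0.0478). *Pax9*, a pharyngeal pouch factor, was lower (adjusted p = 0.0343) but well above background in 1 of 4 mutant pools, and its fitted difference of −2.25 was −1.28 with quantile normalization and −3.24 with 75th percentile scaling. *Sox2*, a factor of the dorsal foregut, had −0.43 without overlap (adjusted p = 0.294). The 3 higher genes, named after their values were seen, were *Ptf1a*, a pancreas factor (1.53, without overlap, adjusted p = 0.157), *Cdx2*, a factor of the posterior gut (1.11, adjusted p = 0.685), and *Spink3*, a trypsin inhibitor (0.75, without overlap, adjusted p = 0.124). Each was higher on all 3 slides, but on slide 3 *Cdx2* by only 0.02 and *Ptf1a* by 0.11. *Ptf1a* and *Cdx2* were well above background in 2 of 3 wild-type pools. The exception was wild-type pool 1, against which their slide 1 differences of 2.55 and 1.33 are taken. With single pools left out, *Nkx2-1* kept its call only without mutant pool 2 and *Pax9* only without mutant pool 3, and with the slide as a block their adjusted p was 0.0611 and 0.0573.

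Genes of the midline tissues that also use *Foxa2* gave no call. Of 10 notochord and floor plate genes measured, 7 were lower and 3 higher, with a median of −0.04 (−0.15 without mutant pool 1 and 0.01 without wild-type pool 1). By limma 0 passed the test, against 4 at an unadjusted p under 0.05, a level that 1694 of all 23116 probes reached. *T*, the notochord factor Brachyury, was not well above background in any mutant pool and at least 1.18-fold higher in the wild-type pools (adjusted p = 0.248). *Nkx6-1*, a ventral neural tube and pancreas factor, had −0.89 without overlap (adjusted p = 0.0523). *Corin*, a protease listed here as a floor plate gene and named after its value was seen, had 0.59 without overlap (adjusted p = 0.258). Which tissue of the dissection its signal came from was not tested. The summed signal of the list was 5220 to 7630 in the mutant and 7990 to 8280 in the wild-type pools, and without *Nkx6-1* it was 2880 to 4530 and 3310 to 3760, with overlap. The part of these tissues in the *Foxa2* difference was not tested.

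**Figure D3:**
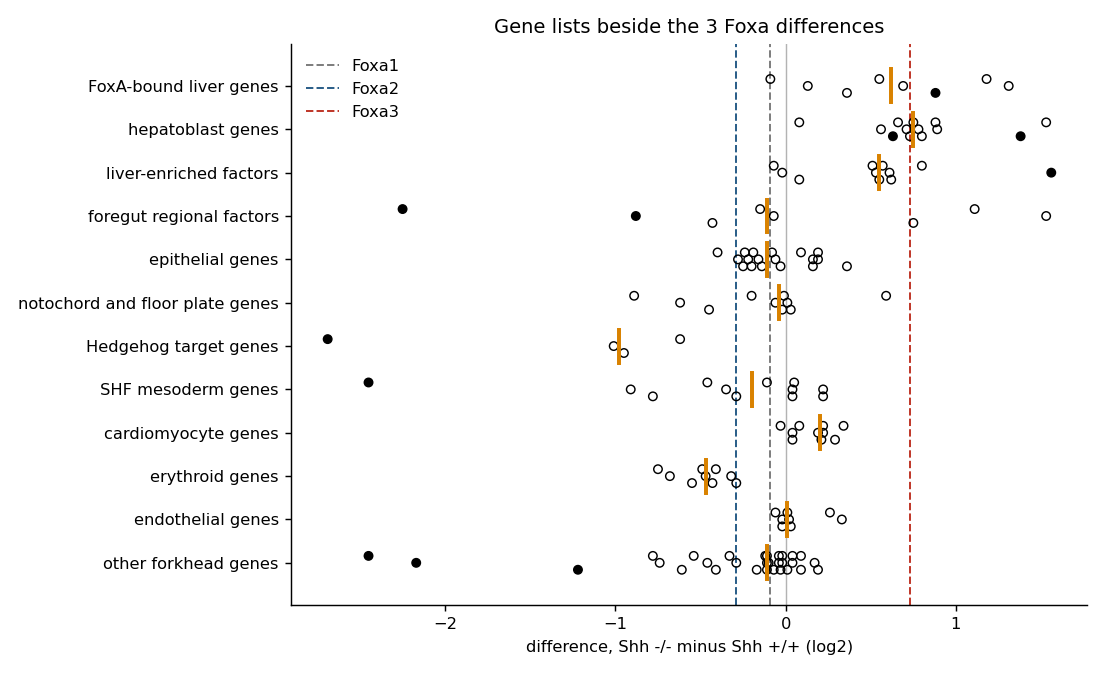
Difference between genotypes (log2, mutant minus wild type) of every measured gene of 12 lists, filled where limma called it at adjusted p under 0.05, with the list median as an orange bar and the 3 *Foxa* differences as dashed lines. The hepatoblast median, 0.75, lies just right of the *Foxa3* line, and those of FOXA-bound genes, 0.62, and liver-enriched factors, 0.55, lie left of it. The medians of epithelial and foregut regional genes lie beside the *Foxa1* line.

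Markers of the other tissues in or near the dissection were read beside these. All 4 Hedgehog target genes were lower without overlap, as were 3.37% of all probes. The 1 call was *Hhip*, the Hedgehog-binding inhibitor, which fell by 2.69 (SE 0.14, adjusted p = 0.00042). *Ptch1*, the receptor, had −1.01 and *Gli1*, the transducer, −0.95. Second heart field mesoderm genes had a median of −0.20 over 12, with 1 call, *Foxf2*, and *Osr1* at −0.91, and the median was −0.30 without mutant pool 1 and −0.07 without mutant pool 4. Cardiomyocyte genes had a median of 0.20 over 10 (largest *Tnni1*, 0.34, and *Myl4*, 0.29), endothelial genes 0.01 over 8 (*Tie1*, 0.33, and *Tek*, 0.26) and erythroid genes −0.47 over 9, all 9 lower (*Slc4a1*, −0.68). None of the genes of these last 3 lists passed limma's test, against 0, 0 and 3 at an unadjusted p under 0.05, where 1694 of all 23116 probes were. The erythroid median rested in good part on wild-type pool 1, without which it was −0.16. The summed erythroid signal, most of it from globin genes, was 270000 to 393000 in the mutant pools, 602000 in wild-type pool 1, and 371000 and 368000 in wild-type pools 3 and 4. The summed cardiomyocyte signal was 260000 to 399000 in the mutant and 225000 to 342000 in the wild-type pools, with overlap. The cardiomyocyte median was 0.01 without mutant pool 1, 0.04 without wild-type pool 4, 0.11 without mutant pool 3, 0.13 without mutant pool 2, 0.31 without wild-type pool 3 and 0.47 without mutant pool 4.

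Pool by pool, the *Foxa3* profile was nearest to the hepatoblast list. With each profile centred on its mean over the 7 pools, the root mean square distance of *Foxa3* was 0.15 to the hepatoblast mean, 0.17 to the liver-enriched factors and 0.20 to the FOXA-bound genes, against 0.41 to the epithelial and 0.50 to the notochord and floor plate mean. Within genotypes, *Foxa3* and the hepatoblast mean were both highest in mutant pool 3, at 0.26 and 0.20 above their mutant means, and both lowest among the wild-type pools in pool 1, at −0.32 and −0.10 from their wild-type means. They parted elsewhere: among the wild-type pools *Foxa3* was highest in pool 3 (0.23) and the hepatoblast mean in pool 4 (0.12), and the FOXA-bound mean was highest in mutant pool 2 (0.14) and lowest of the wild-type pools in pool 3 (−0.11). *Foxa2* was nearest to the second heart field list (0.12) and to the notochord and floor plate list (0.15), and 0.57 from the hepatoblast list. The *Foxa2* profile varied little, with an SD of 0.20 over the pools, so its small distances tell little. *Foxa1* was 0.29 from its nearest list, the epithelial genes. These distances are over 7 pools and include the difference between genotypes that chose the *Foxa* genes.

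**Figure D4:**
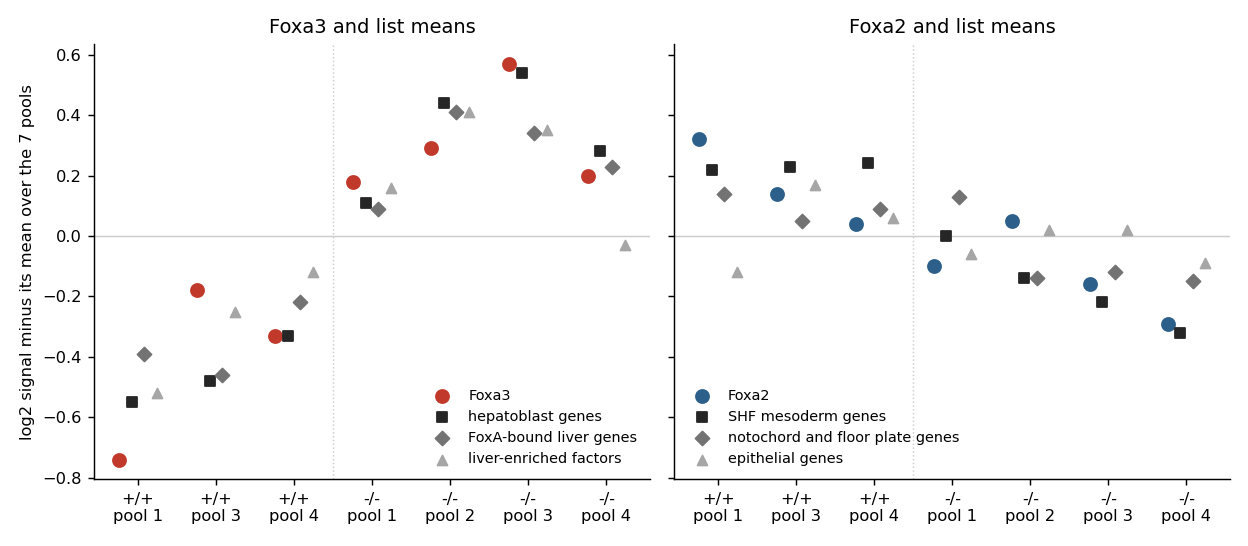
Log2 signal in each pool minus the mean over the 7 pools (y axis), for *Foxa3* with the means of the 3 liver lists (left) and *Foxa2* with the means of 3 other lists (right), the genotypes parted by a dotted line. *Foxa3* and the hepatoblast mean are below 0 in all 3 wild-type pools and above 0 in all 4 mutant pools, and *Foxa2* crosses to the other side at mutant pool 2 alone.

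Single genes nearest to each paralog by the same distance, among probes with at least 0.5 of its SD over pools, were read next. *Foxa3* was nearest to *Sult1b1*, a sulfotransferase (0.100), *Wt1*, a factor of the coelomic mesothelium (0.104), *Ugt2b35*, a glucuronosyltransferase (0.106), *Gsn*, the actin-severing protein gelsolin (0.110), and *Amhr2*, the anti-Müllerian hormone receptor (0.113). All 5 were higher, by 0.60 to 0.80, and *Gsn* alone passed the test (0.80, adjusted p = 0.0343), a call it kept only without mutant pool 4 when single pools were left out (adjusted p = 0.0949 with the slide as a block). They were the nearest of 599 probes within 0.3 of *Foxa3*, out of 8254 candidate probes. *Foxa2* was nearest to *Unc13d* (0.037), *Ltbp2* (0.053), *Evi1* (0.057), *Rnf32* (0.060) and *9330151L19Rik* (0.064), with differences of −0.29 to −0.19. *Foxa1* was nearest to *Imp4* (0.075), *Wee1* (0.076), *Atp5b* (0.077), *Reep3* (0.078) and *Picalm* (0.082), with differences of −0.15 to −0.06. None of these 10 passed the test. Within 0.3 lay 13425 of 20371 candidate probes for *Foxa2* and 3070 of 13059 for *Foxa1*, so nearness to these 2 profiles sets few genes apart.

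Among the other forkhead genes, none was called higher. Of 37 on the array, 30 were measured, 23 lower and 7 higher, with a median of −0.11. Pools of the genotypes did not overlap in 7, all lower, and 3 passed the test, all lower. Over all probes, 3.37% were lower without overlap and 0.294% were called lower. *Foxf2*, a factor of the mesenchyme around the gut, fell by 2.45 (SE 0.17, adjusted p = 0.00132) and *Foxi2* fell by 1.22 (SE 0.20, adjusted p = 0.0478), the last well above background in 2 of 4 mutant pools. *Foxf1a*, the partner of *Foxf2*, had −0.78 without overlap (adjusted p = 0.0895). The count of 3 was 1 without mutant pool 3, and *Foxi2* lost its call with any pool left out and with the slide as a block (adjusted p = 0.0861), its fitted difference being −0.67 with quantile normalization, while *Foxf2* kept its own with each. The highest difference of the 30 was 0.19, against 0.73 for *Foxa3*, and the *Foxa2* difference of −0.29 lay within their range. *Foxa3* was chosen by its difference and the 30 were taken by name, so this does not set *Foxa3* apart in the family.

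In RefSeq promoters (GRCm38.p6, 250 bases before the start to 50 after), 1 was listed for *Foxa1*, 3 for *Foxa2* and 1 for *Foxa3*. The core Gli motif GACCACCCA, searched on both strands because Gli factors carry the Hedgehog signal, was in none of them and in 0.25% of 32851 promoters. With a motif this rare, no match in so few promoters was near certain. The search cannot tell whether Gli factors act on these genes. The forkhead motif TGTTTAC, searched likewise because FOXA factors bind their own genes, was in the *Foxa1* promoter and in 3.65% of all. It lies there on the opposite strand, at positions −141 to −135 from the start, and is shown in capitals within its surroundings at chr12:57546220-57546279, minus strand.
*Foxa1* promoter: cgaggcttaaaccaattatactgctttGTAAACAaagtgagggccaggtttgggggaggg
A match is a stretch of letters and not a measured site, and the paralog that holds it is the one with no settled difference between genotypes.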

How the data were processed

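The authors' deposited scan files give spot signal and local background as intensity, read by Agilent Feature Extraction 10.5.1.1, and a further table by the authors gives normalized values on the log2 scale. Per the study's methods, outlier features were excluded, background was corrected by a method not named, and VSN was applied. Here, outlier spots were left out (155 to 206 of 43379 spots an array), mean signals were corrected by normexp from 153 negative control spots (offset 50), normalized by an own implementation of VSN, and averaged per probe. No spot was saturated.

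Probes were tested when they carried a gene name and all arrays of 1 genotype or both read them well above background (23116 probes), with limma 3.58.1 in R 4.3.3, with Benjamini-Hochberg adjustment. The SAM test of the study was not run. Lists were read by each gene's brightest tested probe. The *Foxa* genes and the lists were chosen with earlier results of these data known. Genes named are the *Foxa* genes and *Shh*, 14 endoderm, Hedgehog and forkhead genes whatever their values, from each list up to 4 called genes or, with under 2 called, the 2 largest differences, and the 5 nearest to each *Foxa* gene. Some genes that this rule names are not reported here.

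The labels' replicate numbers mark a shared slide, so slide was tried as a block. Deviations of same-slide pools correlated at 0.195, 0.282 and 0.0622. Mutant and wild-type pools on different slides gave −0.224 to 0.182, so the 2 sets of values overlapped. Other alternatives were 75th percentile scaling, quantile normalization, no background correction, outlier spots kept, no filter on dim probes, the authors' values and leaving out each pool. Added after seeing the data were 1 median per array for the authors' values, the spread without mutant pool 2 and a list's sum without *Nkx6-1*. VSN and limma were tested on simulated data. Figures used matplotlib 3.10.9.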

Additional observations from a re-analysis of the deposited data

Results flagged for a closer look

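Of 15 *Foxa* genes and list means checked for a single outlying pool among the 4 mutant pools (gap to the nearest pool over the whole range), 2 were past Dixon's critical value, and chance gives about 1 in 20. The mean of the foregut regional factors was at 0.08 in mutant pool 2, the possibly leaked array, and at −0.06 to −0.04 in the others, a ratio of 0.842. The mean of the notochord and floor plate genes was at 0.13 in mutant pool 1 and at −0.15 to −0.12 in the others, a ratio of 0.89. *Foxa1*, *Foxa2* and *Foxa3* gave ratios of 0.513, 0.445 and 0.716.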

How the results depend on the processing

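The *Foxa3* difference was 0.60 to 0.76 and the *Foxa2* difference −0.30 to −0.29 under the alternatives that kept all pools, other than the slide block and the authors' values. On the authors' table as deposited, where the median of all probes shifted by −0.54, the differences were −0.69 for *Foxa1*, −0.68 for *Foxa2* and 0.17 for *Foxa3*, and the median of the liver-enriched factors turned to −0.07. With 1 median per array in that table, *Foxa2* was at −0.07. Leaving out single pools gave −0.27 to 0.08 for *Foxa1*, −0.35 to −0.21 for *Foxa2* and 0.57 to 0.84 for *Foxa3*. With slide as the replicate block, *Foxa1* turned to 0.08, *Foxa2* was −0.35 and *Foxa3* 0.73. Mutant pool 2 was alone on its slide, so it adds nothing to a difference fitted with the block. These 3 differences are therefore the same as those without mutant pool 2 and are no separate check.

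Calls over all probes, 68 lower and 53 higher, were 36 and 18 with 75th percentile scaling, 28 and 10 with no filter on dim probes, 9 and 1 with the replicate block, 0 and 0 on the authors' values either way (28 and 1040 probes at an unadjusted p under 0.05), and 9 to 49 and 0 to 64 with single pools left out, the lowest without mutant pool 3. Hepatoblast calls, 2 as reported, were 1 with outlier spots kept, 0 with 75th percentile scaling, quantile normalization, no filter, the replicate block or the authors' values either way, and 0 to 4 with single pools left out. Forkhead calls, 3 as reported, were 0 on the authors' values either way and 1 to 2 with single pools left out. *Ttr*, *Fga*, *Ambp* and *Creb3l3* lost their calls with any single pool left out other than mutant pool 1, and these 4, *Nkx2-1*, *Pax9*, *Foxi2* and *Gsn* also with the block, while *Hhip* and *Foxf2* kept theirs in each of these fits. The cause of these losses was not tested.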
